A study of Mus musculus with 8 samples.

Results

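The MYC network and MYB were followed in sorted mouse B cells that lacked or retained the miR-15/16 microRNAs. The genes were chosen by name, as the rows for Myc, Mycn, Max, Mxd1, Mxd3, Mxd4, Mxi1, Mnt and Myb, which are 9 of the 24746 genes counted. The libraries came from bone marrow B cells of 4 dKO mice, with the genotype miR-15a/bfl/fl Vav-Cre, and of 4 control mice, with the genotype miR-15a/b+/+ Vav-Cre, all aged 10 to 12 weeks. The Vav-Cre transgene drives the recombinase from an early stage of blood formation, so deletion was neither limited to B cells nor timed, and the controls carry the transgene too. RNA was amplified by SMART-seq, a full-length cDNA method for small RNA amounts. The series is titled for the control of early B cell development through the IL-7 receptor.

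MYC is a transcription factor of growth and division that binds DNA as a dimer with MAX. The MXD proteins, MXI1 and MNT also dimerise with MAX, bind the same E-box sites and recruit the SIN3 and histone deacetylase corepressors, so they act against MYC, and MYC and MXD levels often move in opposite ways when cells leave the cycle. MYCN can stand in for MYC and is used by early progenitors. MYB is a separate transcription factor required in early lymphoid progenitors, where it falls as the cells mature, and it is a known target of miR-15/16 and of miR-150.

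The sequences below show how the deleted microRNAs can pair with these transcripts. Both clusters produce guide strands that share the seed, bases 2 to 8, given in capitals (RefSeq, GRCm38.p6), and miR-16-5p comes from a copy in each cluster.
miR-15a-5p (chromosome 14): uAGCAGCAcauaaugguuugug
miR-15b-5p (chromosome 3): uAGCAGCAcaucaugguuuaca
miR-16-5p (chromosomes 14 and 3): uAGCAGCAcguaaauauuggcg
Another 7 mature microRNAs in RefSeq carry this seed, with miR-195a-5p, miR-497a-5p and miR-322-5p among them, and these lie outside the deleted clusters.

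Matches to the seed were searched in the longest annotated 3′ UTR of each gene (GENCODE M21, GRCm38), on the transcript strand. An 8mer is TGCTGCTA, a 7mer-m8 is TGCTGCT without the final A, and a 7mer-A1 is GCTGCTA without the first T, and each position was counted once. Of the 9 genes 6 had at least 1 match, against 28.1% of the 10407 tested genes with a 3′ UTR, and 3 had an 8mer, against 4.49%. Myb is in both counts and was included because it is a known target, so the counts are partly fixed by that choice. The 3′ UTRs of Mxd4, Mnt, Mxd1 and Mxi1 are 2405 to 4074 bases long and the median over the tested genes is 1139, so these shares are not matched for length. Each site is printed below with its flanks and the match in capitals, because these are the places where loss of the microRNAs could act directly.
Mxd4 (chromosome 5, 8mer, bases 2518 to 2525 of 3105): accaaaatagcTGCTGCTAtgtcctccacc
Mnt (chromosome 11, 8mer, bases 376 to 383 of 2405): tcctgtgctgtTGCTGCTAttgctctgtct
Myb (chromosome 10, 7mer-A1, bases 681 to 687 of 1238): gaaatgtgttcGCTGCTAtggttttagcc
Myb (chromosome 10, 8mer, bases 707 to 714 of 1238): gcctgtagtcaTGCTGCTAgctagtgtcag
Mxd1 (chromosome 6, 7mer-A1, bases 3106 to 3112 of 3829): gtacttcaatgGCTGCTActcctgactta
Mxd3 (chromosome 13, 7mer-m8, bases 194 to 200 of 615): tggccctgcttTGCTGCTccccacaggga
Mxi1 (chromosome 19, 7mer-m8, bases 2283 to 2289 of 4074): cacatcaaataTGCTGCTggggaaggagg
Myc, Mycn and Max had no such match in 3′ UTRs of 466, 913 and 1299 bases. A match is a description of the letters and not evidence of binding.

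The libraries held 25565090 to 34954230 counts each. Pan-B markers had summed levels of 21800 to 24000 CPM (read counts scaled to a common library total) in dKO libraries and 22800 to 25900 CPM in controls. The cells are named B1a B cells in the sample labels but pro-B cells in the series text. The sums of the 9 B-1a markers were 1010 to 1340 CPM in dKO libraries and 473 to 1120 CPM in controls, while 8 of 10 pro-B markers were too low to be tested and Kit had no count in any library. Control 2 and control 4 stood apart by their follicular B-2 markers (recirculating B cells, 5 genes), with a mean log2 CPM of 6.36 and 6.67. The score was 3.68 to 4.52 in the 4 dKO libraries and 4.16 and 3.82 in control 1 and control 3. Control 2 and control 4 also had the lowest B-1a scores of all libraries (4.61 and 4.50, mean log2 CPM). Their scores for markers of cycling cells were the lowest too (1.39 and 1.66).

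None of the genes passed the test between genotypes, and Mxd4 was the one that came nearest. In the edgeR quasi-likelihood test with Benjamini-Hochberg adjustment, 0 of the 8 members tested had an adjusted p under 0.05, against 0.088% of the 11363 genes tested (0.0616% higher and 0.0264% lower in dKO), and Mycn was too low to be tested. At an unadjusted p under 0.05 there was 1 member, Mxd4, against 10.8% of all genes tested. Mxd4 was also the 1 member whose groups did not overlap, against 6.96% of all genes tested (4% with dKO above and 2.96% with dKO below). DESeq2 and limma voom each called Mxd4 and no other member, where DESeq2 called 2.84% of genes (1.77% higher in dKO) and limma voom 2.26% (1.39% higher). Of the 8 log2 fold changes 6 were positive, with a median of 0.26, against 47.7% positive and a median of −0.02 over all genes tested. The labels do not say how the mice were matched. The p-values set the difference between genotypes against the spread among libraries of the same genotype, in these 8 libraries. In bulk libraries such as these, more cells of a type and more RNA per cell cannot be told apart.

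**Figure D1:**
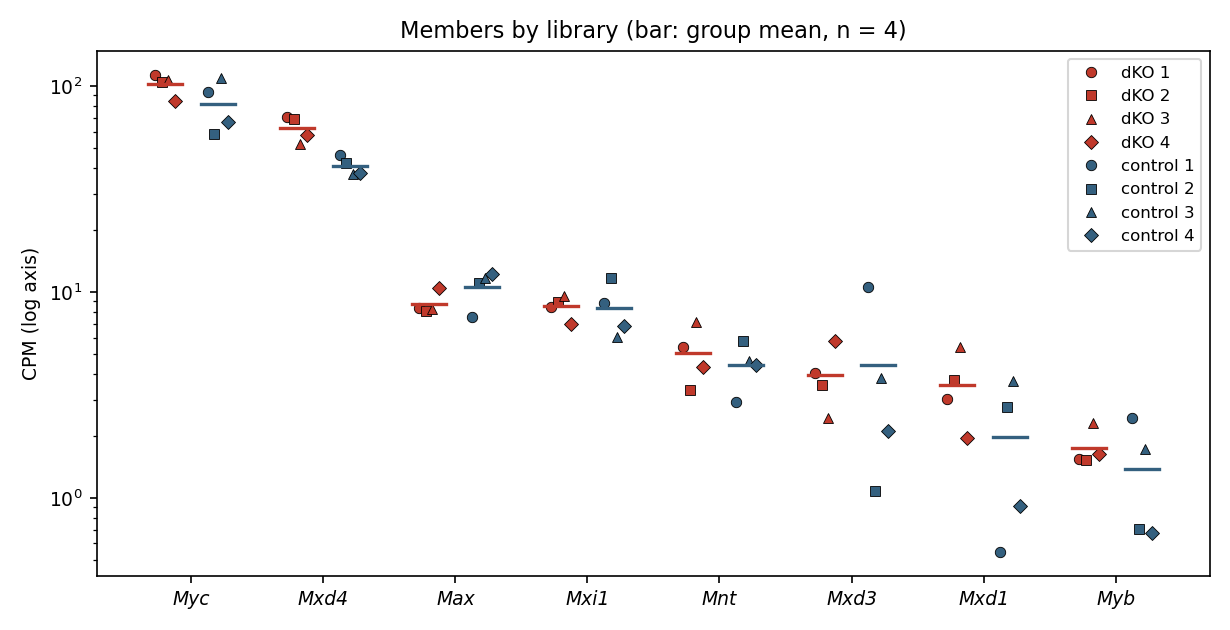
CPM of the 8 tested members in every library on a log axis, dKO libraries in red and control libraries in blue, with bars at the group means (n = 4 each). Mxd4 is the gene whose dKO libraries, 52.3 to 70.6 CPM, all lie above the controls, 37.2 to 46.3 CPM.

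Myc, the transcription factor gene at the head of the network (ENSMUSG00000022346, chromosome 15), was well expressed in both genotypes. It stood at 113.4, 103.9, 106.8 and 84.3 CPM in dKO 1 to 4, against 93.2, 58.7, 109.1 and 66.9 CPM in control 1 to 4. The groups overlapped, since control 3 lay above dKO 2, dKO 3 and dKO 4, and the lowest levels were in control 2 and control 4. The means were 102.1 ± 12.5 CPM in dKO libraries and 82.0 ± 23.3 CPM in controls (SD, n = 4 each). The log2 fold change was 0.32 ± 0.20 (SE, 95% interval −0.12 to 0.75, edgeR adjusted p = 0.63), an interval that holds both 0 and a difference of 0.75. With 1 library left out it ranged from 0.19 without control 2 to 0.49 without control 3. Leaving out control 2 and control 4 together, where follicular B-2 markers were high, gave 0.02 (adjusted p = 0.98), in a fit that called 0.499% of genes (0.186% higher in dKO) and no member. Adjusting for the follicular B-2 score in all 8 libraries also gave 0.02 (adjusted p = 0.98). Control 2 and control 4 were also lowest in the B-1a and cycling scores. The parts of these traits in the Myc values cannot be told apart.

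Mycn, the MYC relative of progenitors, had 0 counts in all 4 dKO libraries and in 3 controls, and 4 counts in control 2. A count of 0 allows up to 3 counts, or 0.0854 to 0.111 CPM in a dKO library and 0.088 to 0.109 CPM in a control library, by counting error only. If both mates of a pair were counted, these limits are higher. Expression of Mycn was therefore not detectable at this depth in 7 of the 8 libraries, and no fold change is given.

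Max, the shared dimer partner, lay slightly lower on average in dKO libraries. It stood at 8.34, 8.10, 8.21 and 10.4 CPM in dKO 1 to 4 and at 7.54, 10.98, 11.7 and 12.2 CPM in control 1 to 4. Control 1 was the lowest of all 8 libraries while the other 3 controls were above every dKO library. The log2 fold change was −0.28 ± 0.20 (SE, 95% interval −0.72 to 0.17, edgeR adjusted p = 0.71). It was −0.40 (adjusted p = 0.38) without control 1, −0.13 (adjusted p = 0.86) without control 2 and control 4, and −0.15 (adjusted p = 0.88) after adjustment for the follicular score.

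Mxd4, a MAX-binding repressor linked with resting and differentiated cells (ENSMUSG00000037235, chromosome 5), was higher in every dKO library than in any control, without a call. It stood at 70.6, 68.7, 52.3 and 57.6 CPM in dKO 1 to 4, against 46.3, 42.3, 37.2 and 37.7 CPM in control 1 to 4. The gap between dKO 3 and control 1, the nearest libraries, was small beside the range within the dKO group. The means were 62.3 ± 8.80 CPM in dKO libraries and 40.9 ± 4.27 CPM in controls (SD, n = 4 each), and the log2 fold change was 0.61 ± 0.15 (SE, 95% interval 0.28 to 0.93). Its unadjusted p of 0.0016 was the 131st smallest of 11363, and the edgeR adjusted p was 0.13.

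Mxd4 passed with DESeq2 (log2 fold change 0.60, adjusted p = 0.026) and with limma voom and quality weights (0.74, adjusted p = 0.025). Its estimate moved little between libraries, from 0.54 without dKO 1 to 0.69 without dKO 3 (adjusted p = 0.067 to 0.40 with 1 library left out). Unlike Myc, its estimate was 0.58 (adjusted p = 0.21) when control 2 and control 4 were left out and 0.57 (adjusted p = 0.28) after adjustment for the follicular score. The difference between the 2 genes in this respect was not tested. The B-1a score was also above all controls in dKO libraries, with a mean log2 CPM of 5.91 to 5.97 against 4.50 to 5.51, and its part in the Mxd4 values was not tested.

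Mxd1, the MXD gene of terminal differentiation that is also abundant in granulocytes, was low and scattered. It stood at 3.02, 3.71, 5.40 and 1.94 CPM in dKO 1 to 4 and at 0.547, 2.76, 3.70 and 0.909 CPM in control 1 to 4. Control 1 and control 4 were below every dKO library, and control 2 and control 3 lay within the dKO range. The log2 fold change was 0.83 ± 0.56 (SE, 95% interval −0.39 to 2.05, edgeR adjusted p = 0.66), the largest estimate among the members and one that ranged from 0.53 without control 1 to 1.32 without control 3. The 10 myeloid markers summed to 460 to 2130 CPM in dKO libraries and 524 to 5110 CPM in controls, nearly all of it Lyz2. The neutrophil gene S100a9 was at 5.27 to 33.5 CPM in dKO libraries and 2.25 to 42.9 CPM in controls, S100a8 was at 1.63 to 15.5 CPM in dKO libraries and 1.97 to 13.96 CPM in controls, and Mpo, Elane, Ly6g and Csf3r were below 1 CPM in every library. The myeloid score (mean log2 CPM) was 0.28, 0.53, 1.28 and 0.53 in dKO 1 to 4 and 1.01, −0.12, −0.02 and 2.40 in control 1 to 4. It was thus highest among dKO libraries in dKO 3, which had the highest Mxd1, and highest among controls in control 4 and control 1, which had the lowest. The part of myeloid cells in the Mxd1 levels was not tested, and with the myeloid score as a covariate the Mxd1 log2 fold change was 1.01 (adjusted p = 0.61).

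Mxd3, the family member expressed in cycling cells around S phase, varied most among controls. It stood at 4.04, 3.53, 2.44 and 5.79 CPM in dKO 1 to 4 and at 10.6, 1.08, 3.84 and 2.11 CPM in control 1 to 4. The controls held both the highest and the lowest library. The log2 fold change was −0.15 ± 0.59 (SE, 95% interval −1.46 to 1.15, edgeR adjusted p = 0.96) and was 0.76 (adjusted p = 0.53) without control 1 and −0.86 (adjusted p = 0.38) without control 2 and control 4. The 8 cycling markers summed to 43.8 to 77.1 CPM in dKO libraries and 26.9 to 93.0 CPM in controls, with the highest sum in control 1 and the lowest in control 2, as for Mxd3. What part cycling cells have in these levels was not tested.

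Mxi1 and Mnt, the remaining MAX-binding antagonists among the members, showed no separation by genotype. Mxi1 was at 8.48, 8.91, 9.59 and 6.98 CPM in dKO 1 to 4 and at 8.86, 11.7, 6.02 and 6.80 CPM in control 1 to 4. The dKO values fell inside the range of the controls, with a log2 fold change of 0.03 ± 0.24 (SE, 95% interval −0.49 to 0.55, edgeR adjusted p = 0.98). Mnt, which carries an 8mer, was at 5.41, 3.34, 7.15 and 4.33 CPM in dKO 1 to 4 and at 2.92, 5.76, 4.61 and 4.40 CPM in control 1 to 4. These groups overlapped too, with a log2 fold change of 0.19 ± 0.30 (SE, 95% interval −0.47 to 0.85, edgeR adjusted p = 0.88).

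Myb (ENSMUSG00000019982, chromosome 10), included because it is a known target, was low and imprecisely measured, with 21 to 67 counts per library. It stood at 1.54, 1.52, 2.30 and 1.64 CPM in dKO 1 to 4, against 2.44, 0.707, 1.72 and 0.675 CPM in control 1 to 4. The highest library was control 1 and the lowest were control 2 and control 4, so the dKO libraries lay inside the control range. The means were 1.75 ± 0.37 CPM in dKO libraries and 1.39 ± 0.86 CPM in controls (SD, n = 4 each), and the log2 fold change was 0.34 ± 0.48 (SE, 95% interval −0.71 to 1.39, edgeR adjusted p = 0.87). The interval is wide enough to hold a rise of more than 1 on the log2 scale as well as a decrease. The sign depended on control 2 and control 4, since the estimate was −0.25 (adjusted p = 0.84) when both were left out and −0.15 (adjusted p = 0.95) after adjustment for the follicular score. With 1 library left out it ranged from 0.11 without control 4 to 0.76 without control 1, and it was 0.18 without dKO 3 and 0.12 without control 2.

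**Figure D2:**
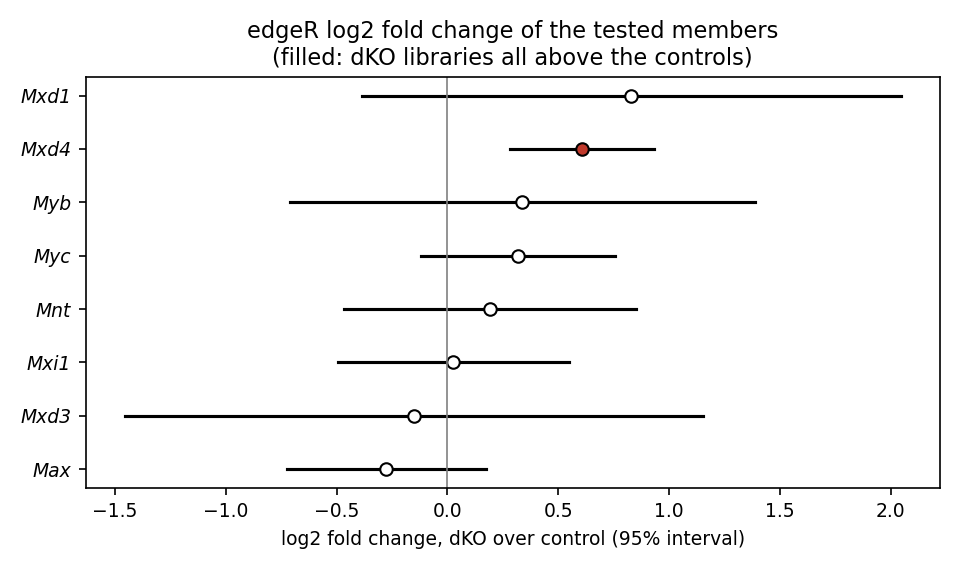
edgeR log2 fold changes of dKO over control with 95% intervals for the 8 tested members, ordered by size. The interval of Mxd4, 0.28 to 0.93, is the 1 interval that does not include 0, before adjustment over all genes.

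**Figure D3:**
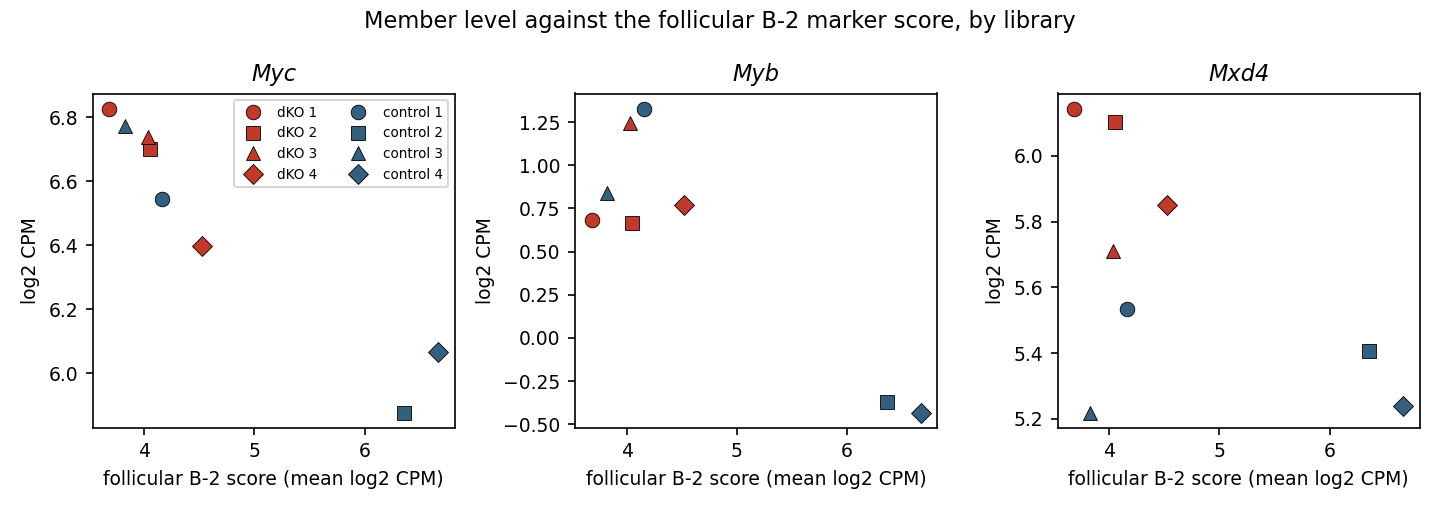
log2 CPM of Myc, Myb and Mxd4 in each library against the follicular B-2 marker score (mean log2 CPM of 5 genes), with dKO libraries in red and controls in blue. Control 2 and control 4 sit apart at scores of 6.36 and 6.67 and hold the lowest Myc and Myb levels, while in Mxd4 all 4 controls lie below the dKO libraries. Control 2 and control 4 are also lowest in the B-1a and cycling scores, which are not drawn.

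Set against transcript length, the order of the members was clear at the top and close at the bottom. CPM per kb of the longest coding transcript (GENCODE M21) was 43.7 ± 5.35 in dKO libraries and 35.1 ± 9.98 in controls for Myc, and 16.1 ± 2.27 in dKO libraries and 10.6 ± 1.10 in controls for Mxd4 (SD, n = 4 each). Max followed with 4.52 ± 0.57 in dKO libraries and 5.46 ± 1.08 in controls. Myc lay above Mxd4, and Mxd4 above Max, in all 8 libraries. Mxd3 lay below Max in 7 of 8 libraries and above Mxi1 in 6 of 8. Mxi1 was above Mnt in all 8, Mnt above Mxd1 in 7 and Mxd1 above Myb in 6, so several of these neighbours do not differ beyond their spread over libraries. Mycn was below Myb in all 8. The levels depend on the length chosen: per kb of all annotated exons, Mxd4 was at 7.35 in dKO libraries and 4.82 in controls, and Myb at 0.196 in dKO libraries and 0.155 in controls. The order of the means was the same, while Mxd3 was above Mxi1 in 5 of 8 libraries and Mxi1 above Mnt in 6 of 8.

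Among Myc and the 5 tested MXD, MXI1 and MNT genes, a set that leaves out the MAX partner Mga, Myc held about the same share in both genotypes. Its share of their summed CPM per kb was 66.2%, 65.2%, 69.6% and 62.1% in dKO 1 to 4, against 64.0%, 61.2%, 75.1% and 67.4% in control 1 to 4. The mean share of Myc was 65.8 ± 3.08% in dKO libraries and 66.9 ± 6.0% in controls (SD, n = 4 each), a difference smaller than the spread within either group. Mxd4 made up 24.9%, 26.1%, 20.6% and 25.6% in dKO 1 to 4, against 19.2%, 26.7%, 15.5% and 22.9% in control 1 to 4. Control 2 held the highest Mxd4 share of all, so the separation seen in Mxd4 level was not present in its share. The share also depends on Myc, which makes up most of the sum. Control 2 had the lowest Myc (58.7 CPM), while its Mxd4 (42.3 CPM) lay within the range of the other controls. With the length of all annotated exons the mean share of Mxd4 was 14.9% in dKO libraries and 12.8% in controls, and that of Myc was 75.9% in dKO libraries and 76.2% in controls, again with overlap. The log2 ratio of Myc to Mxd4 CPM was 0.71 ± 0.22 in dKO libraries and 0.96 ± 0.45 in controls (SD, n = 4 each), also with overlap. The log2 ratio of Myc to Max CPM was 3.53 ± 0.35 in dKO libraries and 2.92 ± 0.59 in controls, where control 1 (3.62) and control 3 (3.21) lay within the dKO range of 3.01 to 3.75.

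**Figure D4:**
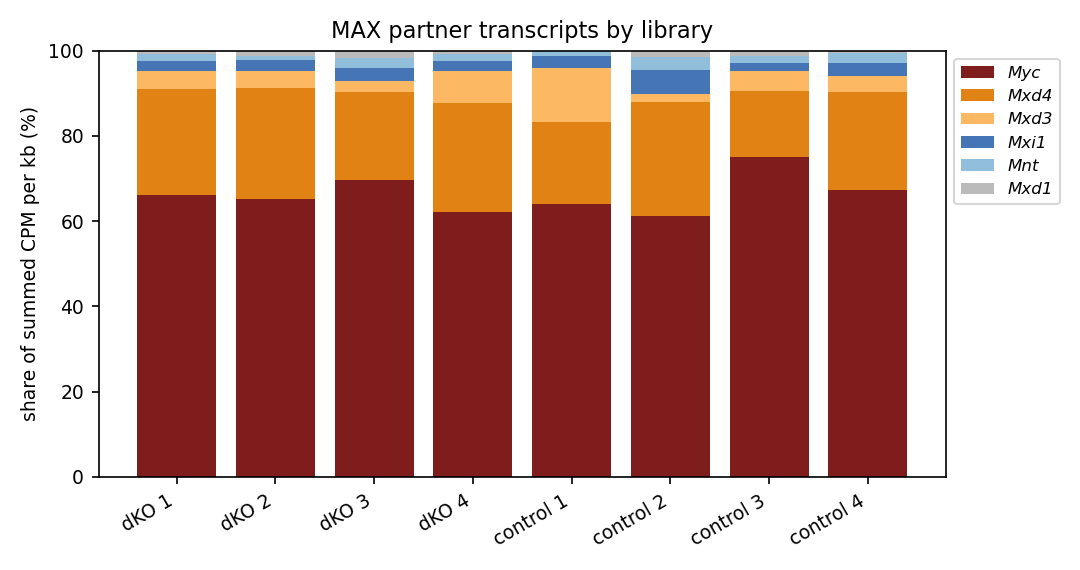
Share of each gene in the summed CPM per kb of the longest coding transcript of Myc, Mxd4, Mxd3, Mxi1, Mnt and Mxd1, by library, with dKO libraries left of controls. With this length Myc holds 61.2% to 75.1% and Mxd4 15.5% to 26.7%, and with the length of all annotated exons 71.1% to 82.7% and 9.03% to 16.4%, with overlap between genotypes in both.

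The genes with patterns most like Myc and Myb were found by the root mean square difference of centred log2 CPM over the 8 libraries, among 7363 other named genes with a mean of at least 5 CPM. Nearest to Myc were AU041133 (0.0919), Lsp1 (0.102) and Aldh2 (0.107). Nearest to Myb were Rpgrip1 (0.196), Pepd (0.225) and Mrpl52 (0.251), at larger distances. These are descriptions of 8 libraries, and none of the 6 was called between genotypes (edgeR adjusted p = 0.65 to 0.86).

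Other genes of the MYC and MLX network and of the MYB family were not called either. Mlx, the partner of the glucose-sensing MONDO proteins, had a log2 fold change of −0.31, Mga, a MAX partner of a Polycomb-type complex, 0.23, and Mlxip 0.08. Mycl and Mlxipl were too low to be tested. Mybl2, the cell cycle relative of Myb, was at most 1.35 CPM in any library, and its log2 fold change was −2.03 ± 0.95 (SE, edgeR adjusted p = 0.48), although control 4 was the lowest of all 8 libraries. It was −1.29 without control 2, −2.97 without dKO 2 and −0.99 with limma voom. Mybl1 was too low to be tested.

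Genes that act with or on these factors gave no edgeR call among 12 cofactors, 7 corepressors, 10 turnover genes and 5 MYB coactivators, with 2, 2, 1 and 0 of them at an unadjusted p under 0.05, a share near the 10.8% of all genes tested. Fbxw7, the ubiquitin ligase subunit that marks MYC and MYB for degradation, came nearest. It stood at 35.5, 31.6, 41.8 and 25.2 CPM in dKO 1 to 4, against 19.9, 21.6, 18.5 and 13.3 CPM in control 1 to 4. Every dKO library lay above every control. The Fbxw7 log2 fold change was 0.87 ± 0.20 (SE, edgeR adjusted p = 0.11), and the gene was called by DESeq2 (adjusted p = 0.0086) and by limma voom (adjusted p = 0.0216). The 3′ UTR of Fbxw7 holds an 8mer match to the seed. Of the genes named below, so do those of Kmt2a, Ccnd2, Bcl2 and Il7r, with positive estimates, and of Nop56, with a negative one. Eif4e, also negative, has 2 shorter matches. The part of these matches in the estimates was not tested. Of the other turnover genes, Hipk2 had a log2 fold change of 0.54 and Huwe1 of 0.46.

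The corepressor genes used by MXD and MNT proteins were split. Hdac1, a histone deacetylase, was at 198.0, 173.1, 186.2 and 167.4 CPM in dKO 1 to 4, against 131.3, 135.8, 140.2 and 163.6 CPM in control 1 to 4, without overlap, and the log2 fold change was 0.34 ± 0.14 (SE, edgeR adjusted p = 0.38). Sap30, a subunit of the SIN3 complex, lay below the controls in all dKO libraries (−0.42, adjusted p = 0.30), and Sin3a (−0.25) and Ncor1 (0.15) overlapped. Among 12 MYC cofactors 8 were negative. Actl6a lay below all controls in dKO libraries (−0.42, adjusted p = 0.29), Ruvbl1 was at −0.48 and Ruvbl2 at −0.32, and the adaptor Trrap at 0.43. The MYB coactivators Kmt2a (0.34), Ep300 (0.14), Men1 (0.07) and Taf12 (−0.08) overlapped between genotypes, and Kmt2a ranged from 0.087 without dKO 3 to 0.72 without control 2.

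Target genes of MYC were mostly negative in log2 fold change, where the estimate of Myc was positive and not called. Over 4 groups of well-known targets, 43 of 54 tested genes were negative and 11 positive in log2 fold change. The median was −0.17, none was called by edgeR, and 5 had an unadjusted p under 0.05, a share no higher than the 10.8% of all genes tested. The groups differed in this, with 3 of 8 translation and chaperone genes and 1 of 5 cell cycle genes. There was 1 of 18 among metabolic genes and 0 of 23 among ribosome biogenesis genes. Over all 11363 genes 5940 were negative. Of the 23 ribosome biogenesis genes 22 were negative, with a median of −0.20, against −0.02 over all genes tested. The 4 with the smallest p were Grwd1 (−0.34), Mrto4 (−0.40), Nop56 (−0.27) and Nop2 (−0.31), with edgeR adjusted p of 0.59 to 0.63. Nop56, a core protein of small nucleolar RNA particles, was at 136.9, 130.0, 147.3 and 155.1 CPM in dKO 1 to 4, against 145.7, 147.0, 186.2 and 206.8 CPM in control 1 to 4. The higher controls were control 3 and control 4, and the other controls lay in the dKO range. Genes of this kind vary together in a library, so the count of 22 is not 22 separate observations. Without control 3 it was 15 of 23 with a median of −0.11, without control 2 the median was −0.33, without control 2 and control 4 it was 18 of 23 with a median of −0.24, and with limma voom it was 23 of 23 with a median of −0.30.

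The other target groups gave smaller counts. Of 8 translation and chaperone targets 7 were negative, with a median of −0.34, led by the mitochondrial chaperonin genes Hspd1 (−0.50, edgeR adjusted p = 0.29, called by limma voom with adjusted p = 0.049) and Hspe1 (−0.60) and by Eif4e (−0.37) and Eif4a1 (−0.30), and without control 1 the median was −0.16 with 6 of 8 negative. Metabolic targets had 12 of 18 negative and a median of −0.12, with Impdh2 at −0.33, Slc7a5 at −0.66, Nme2 at −0.44 and Slc2a1 at 0.30. That median was −0.05 without control 1, −0.06 without control 3, −0.18 without control 2, −0.21 without dKO 4 and −0.29 without both control 2 and control 4. Nme1 and Nme2 are close copies, so their counts are uncertain. Among 5 cell cycle targets E2f2 did not overlap between groups (0.69, adjusted p = 0.46), and Ccnd2 stood at 0.42, Cks2 at −0.29 and Cdk4 at −0.07. Ccnd2, like Myc, was lowest in control 2 (574.4 CPM) and control 4 (687.0 CPM), and its log2 fold change was −0.06 without both.

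Genes that MYC represses and genes regulated by MYB were likewise without an edgeR call. Of 5 tested repressed genes 4 were negative, with Gadd45a at −0.42, Cdkn1a at −0.33, Ndrg1 at −0.51 and Cdkn2b at 0.43. Cdkn1a ranged from −0.68 without dKO 4 to −0.11 without dKO 3. Of 7 tested MYB-regulated genes 3 were positive. At an unadjusted edgeR p under 0.05 there were 3, Bcl2, Il7r and Ada, against 10.8% of all genes tested. Bcl2, the survival gene, had a log2 fold change of 1.00 (edgeR adjusted p = 0.13) and no overlap. It was called by DESeq2 (adjusted p = 0.011) and by limma voom (adjusted p = 0.028). As given above, the 3′ UTR of Bcl2 holds an 8mer match to the seed. The parts of MYB and of this match in the Bcl2 values were not tested. Il7r had a log2 fold change of 0.79 (edgeR adjusted p = 0.40). T cell markers were present in every library, with Cd3g at 69.0 to 121.3 CPM. The T cell marker score was highest in dKO 2 among dKO libraries and in control 2 among controls, as was Il7r. The lowest control was control 3 for that score and control 1 for Il7r. The part of T cells in the Il7r values was not tested. Ada was at −0.64 and Ebf1 at −0.34, and the progenitor genes Kit and Cd34 were too low to be tested.

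**Figure D5:**
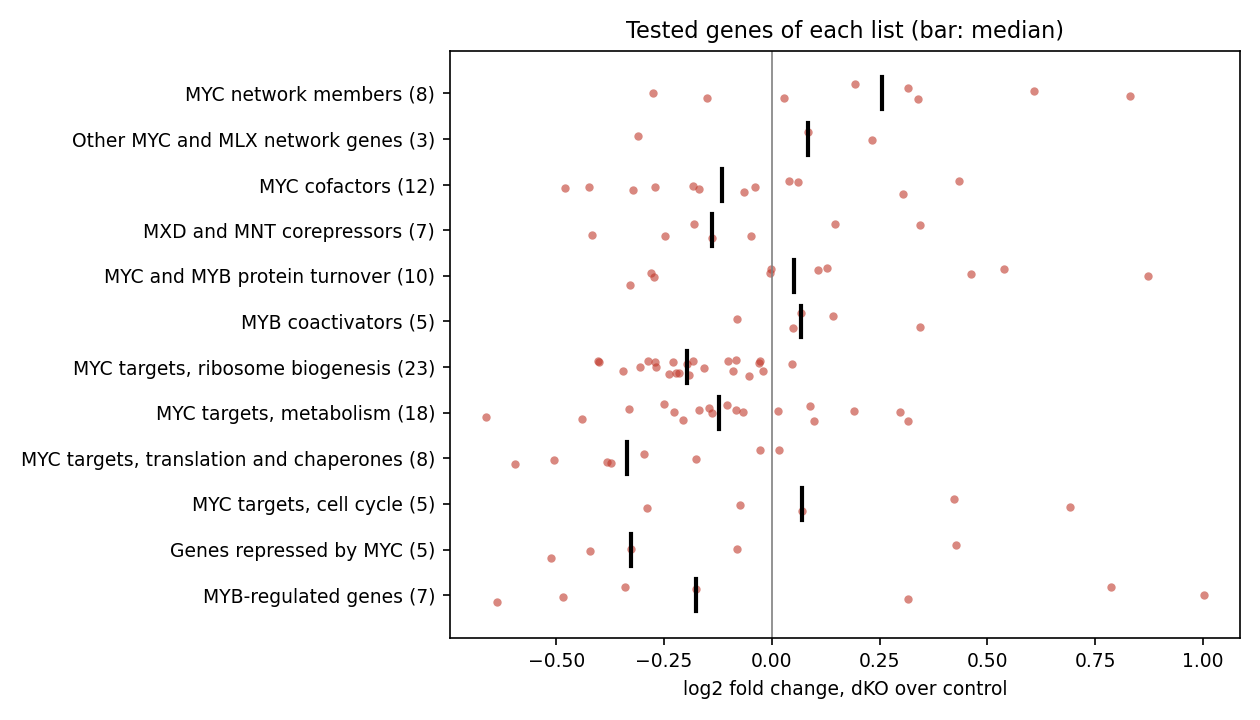
edgeR log2 fold changes of dKO over control for the tested genes of each list, with the number tested in parentheses and a bar at the median. The 23 ribosome biogenesis targets of MYC lie close together with a median of −0.20, whereas the network members spread around a median of 0.26.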

How the data were processed

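RNA sequencing of B cells from 4 dKO and 4 control mice was analysed, with samples grouped by genotype in their titles. Per the submitters' processing notes, Trimmomatic, STAR and featureCounts were used with the GRCm39 build. For their versions, the annotation and strandedness, the sources used here give nothing. The deposited values are raw counts, 1 table for all libraries, and 3 unnamed summary columns in it were not used. Columns were assigned by the codes in the sample descriptions. Among counts from 1 to 19, 72.7% to 77.3% per library were even, as when both mates of a pair are counted, so the number of fragments may be lower and low genes such as Myb less precise than their counts.

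Genes were filtered with filterByExpr, scaled with TMM factors, then tested by edgeR 4.0.16 in R 4.3.3 (robust quasi-likelihood F test, genotype only), adjusted over 11363 genes by the Benjamini-Hochberg method. Standard errors were taken from the fold change and F statistic, and intervals from these and the t distribution. Log2 CPM values used a prior count of 2. Results were recomputed with DESeq2 1.42.0, with voom from limma 3.58.1, with RLE or upper quartile factors, 2 other filters, another threshold, halved counts, a replicate block, 2 marker covariates and leaving out libraries. Lengths and 3′ UTRs came from GENCODE M21 (GRCm38, 91.6% of tested genes with a 3′ UTR), another build than the authors', so no genome coordinates are given. Named genes were the members, up to 4 per list by smallest p, and 3 neighbours each of Myc and Myb. One gene that this rule names is not reported here. Members and lists were chosen with earlier results of these data known. Within groups the libraries differed by more than sampling noise (chi-square per degree of freedom 31.3 or more).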

Additional observations from a re-analysis of the deposited data

Results flagged for a closer look

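In a test for a library far from the other 3 of its group (Dixon's test, which flags about 1 in 20 groups by chance), 3 values among the members were picked out. Mycn in control 2 was at 0.135 CPM, from 4 counts, with 0 counts in the other 3 controls, and since any value beside 3 values of 0 is picked out, this is no test of an outlier. Max in dKO 4 was at 10.4 CPM, above 8.10 to 8.34 CPM in the other 3 dKO libraries. Myb in dKO 3 was at 2.30 CPM, above 1.52 to 1.64 CPM in the other 3 dKO libraries.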

How the results depend on the processing

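Over 19 alternative fits, 138 of 148 member estimates kept their direction, and Mxd4 alone was called, by DESeq2 and by limma voom (1 member each, against 0). Over all genes 10 were called. The number was 322 with DESeq2, 257 with limma voom, 40 with no filter, 75 at an adjusted p under 0.1, 59 without control 2 and control 4, and 4 to 98 with 1 library left out (98 when control 1 was dropped, 30 for control 3, 18 for control 2, and 4 each for dKO 2, dKO 3 and dKO 4). The sign of Mxd3 was positive with limma voom (0.48) and with the replicate block (0.26). After adjustment for the follicular score the sign turned for Myb (−0.15), Gadd45a (0.20), Ndrg1 (0.37) and Sin3a (0.14), and the Cdkn2b log2 fold change was −0.079. Without control 2 and control 4 it turned for Myb (−0.25), Gadd45a (0.25), Ndrg1 (0.43), Cdkn2b (−0.25), Sin3a (0.21) and Ccnd2 (−0.056). With 1 library left out the ranges that crossed 0 were −0.47 to 0.76 for Mxd3, −0.10 to 0.23 for Mxi1, −0.018 to 0.35 for Mnt, −0.060 to 1.03 for Cdkn2b, −0.81 to 0.11 for Ndrg1, −0.41 to 0.034 for Sin3a, −0.054 to 0.37 for Ep300, −0.053 to 0.20 for Men1, −0.24 to 0.13 for Cdk4, −0.71 to 0.0145 for Nme2 and −0.067 to 0.30 for Mlxip. With 1 library left out the estimate moved by over 1.5 times for 6 of the 8 members, all but Mxd4 and Max, and for 29 of 44 other genes chosen by the naming rule, none of them called by edgeR with all libraries. The filter at 5 CPM left Myc, Max, Mxd4 and Mxi1 to be tested. The cause of these changes was not tested. The alternatives for the MYC target lists were chosen after seeing the data.

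The dKO and control titles share replicate numbers, but same-numbered libraries did not deviate together (correlations of −0.01, −0.07, 0.06 and 0.15 over genes tested), and not every library correlated best with its own number. With the replicate block 9 genes and 0 members were called, and Mxd4 had a log2 fold change of 0.60 (edgeR adjusted p = 0.14). Depth limits Mycn, Myb and Mxd1 most, since few counts stand behind each value.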
